A study of Homo sapiens with 4 samples.

Results

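The transcripts described are 32 human genes of glycolysis and of the response to low oxygen, taken by symbol for their known function, with earlier results of these data already known. All 32 were found by symbol among the 25317 gene symbols of the deposited tables. They cover the entry of glucose and the exit of lactate, the enzymes between glucose and lactate, kinases that set the rate, and well-known hypoxia response genes outside glycolysis. They were measured by RNA sequencing in MCF10A, an established non-tumour line of human mammary epithelium. The 4 groups were cells given a pHIV-ZsGreen lentivirus with Zeb1 or Snail, which both turn epithelial cells towards a mesenchymal state, with Ovol2, a factor acting in the epithelial direction, or with no factor (empty vector, EV). All 4 groups were grown in medium with horse serum, epidermal growth factor, cholera toxin and insulin, and green cells were sorted on day 6. The sources used here state neither the promoter that drove the factors nor the oxygen level of the cultures. Each group was 1 library, so no spread between replicates exists, no test was made, and each difference below describes a pair of libraries.

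Glycolysis breaks glucose down to pyruvate in the cytosol and yields ATP without oxygen, and lactate dehydrogenase then turns pyruvate into lactate, which leaves the cell. When oxygen is low, prolyl hydroxylases no longer mark the alpha subunits of the hypoxia-inducible factors (HIF) for breakdown through VHL. HIF then binds short ACGTG or GCGTG cores with its partner ARNT and raises transcription of most glycolytic genes and of genes for blood vessel growth, acid handling, mitochondrial removal and collagen hydroxylation.

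Values are FPKM, fragment numbers corrected for transcript length and for depth, which compare genes per length. Depth, inferred from the smallest steps in the values, came to about 34300000 fragments for Zeb1, 31300000 for Snail, 24300000 for Ovol2 and 29200000 for EV. Libraries matched their labels, with ZEB1 at 17.3 FPKM in Zeb1, SNAI1 at 99.7 FPKM in Snail and OVOL2 at 78.3 FPKM in Ovol2, each the maximum of the 4 libraries. All 7 basal mammary epithelial markers reached 1 FPKM in every library. Against EV 7 of the 7 were lower by 2-fold or more in Zeb1 (median log2 ratio -1.87), 0 in Snail (-0.36) and 6 in Ovol2 (-1.72). KRT17 was the exception in Ovol2 and made up 4624 of the list's sum of 5014 FPKM there, where the sum was 2557 in Zeb1, 7598 in Snail and 9371 in EV. The part of these markers in the results below was not tested. Of immune markers the defining PTPRC and CD3E lay at 0 to 0.018 FPKM in all 4 libraries, and the list's sum of 17.4 FPKM in Zeb1, against 2.36 to 2.87 in the others, was nearly all CD14 (17.0 FPKM). The 5 endothelial and 5 erythroid markers summed to at most 1.57 and 0.195 FPKM in any library. The Ovol2 library stood apart. The RNase RNAs RMRP and RPPH1 took 40.6% of its FPKM, against 18.7% to 24.6% in the others, its genes had a median log2 ratio to EV of -0.51, and that median was 0.26 for the shortest and -1.07 for the longest 10% of transcripts. The part of this in the results below was not tested. Results were therefore also computed with other scalings: centring, which sets the median ratio of well expressed genes to 0, upper quartile scaling, which equalises the upper quartile of the levels, and length correction, which removes the running median of the ratios along transcript length.

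A difference is the log2 ratio of FPKM + 1, and a gene is called higher or lower at 2-fold or more on that scale if it reached 1 FPKM in either library. Where 3 ratios stand together, they are those of Zeb1, Snail and Ovol2 over EV, in that order. In bulk RNA, fewer cells that express a gene and less of its RNA per cell cannot be told apart. In the Zeb1 library 2 of 31 members kept were higher than in EV, ENO2 and BNIP3L, and 1 was lower, LDHB. The shares over all genes were 4.52% higher and 8.49% lower. With Snail 1 of 30 members kept was past 2-fold, SLC2A1, which was lower, where 2.51% of all genes were past 2-fold in either direction. In the Ovol2 library 2 of 30 members kept were higher, SLC2A1 and ALDOC, and 9 were lower. All genes gave 6.82% higher and 25.1% lower there. The 9 lower members were P4HA1, NDRG1, ENO1, LDHB, SLC16A3, PFKFB4, PFKM, LDHA and PDK1. The share of members called, 6.45% higher and 3.23% lower with Zeb1, 3.33% in either direction with Snail and 6.67% and 30.0% with Ovol2, was thus near the background in each comparison. The median log2 ratio of the members was -0.31 with Zeb1, 0.04 with Snail and -0.39 with Ovol2, beside -0.09, 0.12 and -0.51 over all genes. The Ovol2 library held the lowest level of 14 of the 32 members, against 59.9% of all genes, and the Snail library the highest of 10, against 36.4% of all genes. CA9 stayed under 1 FPKM in every library and was not kept, and ENO2 was kept against EV only through the Zeb1 library, where it was high. Likewise PFKFB4 (0.920 FPKM) and PDK1 (0.565 FPKM), among the 9 lower in Ovol2, were kept there only through EV, where they were higher.

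**Figure D1:**
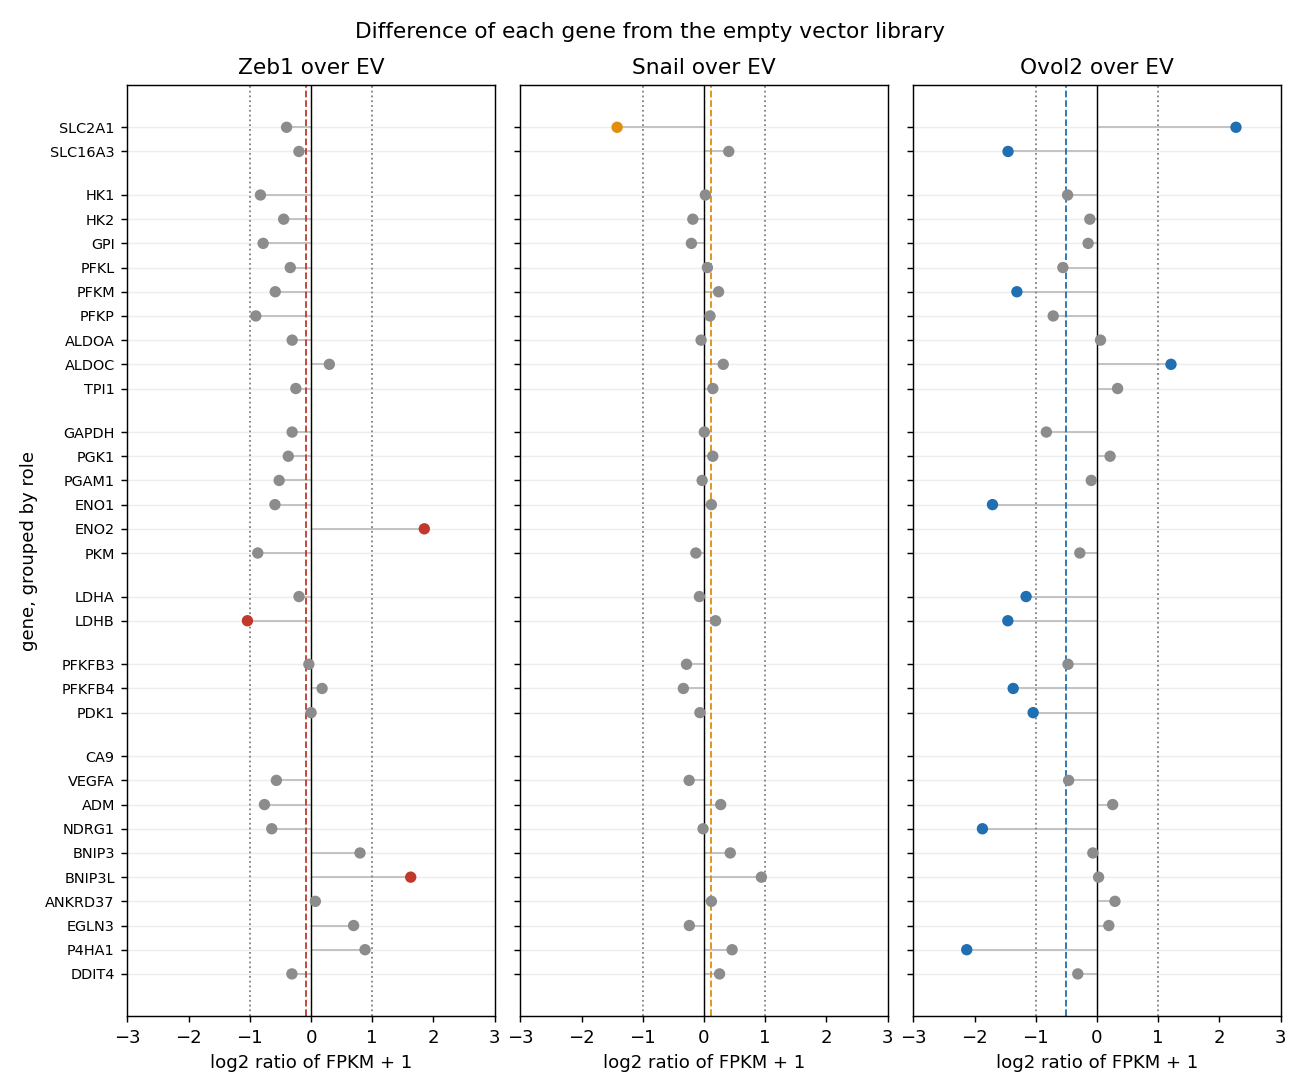
Log2 ratio of FPKM + 1 (x axis) of each member (y axis, grouped by role) in the Zeb1, Snail and Ovol2 library over EV, 1 library each; coloured points are past 2-fold (dotted lines), and the dashed line is the median of all genes. Few points are coloured for Zeb1 (3) and Snail (1) and 11 for Ovol2, where SLC2A1 lies at 2.27 and P4HA1 at -2.13.

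The promoters of the members whose levels moved most are shown because they carry, or lack, the cores that HIF binds. They are the 250 bases before the RefSeq start of the 4 members with the largest ratio in size in the Ovol2 library among those whose promoter could be shown. ALDOC and ENO2, also called higher in a factor library, were added after their values were seen. Capitals mark ACGTG and GCGTG on either strand, so that they also appear as their reverse complements. The windows, in GRCh38.p14, are SLC2A1 (chr1:42958869-42959118, minus strand), P4HA1 (chr10:73096867-73097116, minus strand), ENO1 (chr1:8878687-8878936, minus strand), LDHB (chr12:21657843-21658092, minus strand), ALDOC (chr17:28576896-28577145, minus strand) and ENO2 (chr12:6914330-6914579, plus strand).
SLC2A1: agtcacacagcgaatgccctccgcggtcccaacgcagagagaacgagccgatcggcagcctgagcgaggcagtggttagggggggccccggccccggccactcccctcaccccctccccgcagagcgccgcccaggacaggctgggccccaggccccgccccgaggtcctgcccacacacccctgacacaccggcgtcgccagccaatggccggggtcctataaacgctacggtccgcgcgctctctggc
P4HA1: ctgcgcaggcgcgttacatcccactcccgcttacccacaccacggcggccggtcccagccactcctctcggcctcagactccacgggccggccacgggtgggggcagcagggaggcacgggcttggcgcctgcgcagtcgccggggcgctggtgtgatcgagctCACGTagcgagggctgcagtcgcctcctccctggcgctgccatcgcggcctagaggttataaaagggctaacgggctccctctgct
ENO1: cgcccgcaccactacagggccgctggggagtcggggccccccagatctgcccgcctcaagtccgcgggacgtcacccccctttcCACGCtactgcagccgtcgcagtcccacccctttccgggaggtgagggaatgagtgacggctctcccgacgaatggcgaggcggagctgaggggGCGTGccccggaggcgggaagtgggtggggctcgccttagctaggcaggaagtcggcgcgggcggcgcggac
LDHB: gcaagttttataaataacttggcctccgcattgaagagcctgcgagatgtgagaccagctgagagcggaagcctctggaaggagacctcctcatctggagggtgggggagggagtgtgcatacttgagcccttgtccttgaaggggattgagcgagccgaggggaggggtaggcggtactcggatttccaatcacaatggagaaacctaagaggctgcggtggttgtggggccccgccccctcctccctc
ALDOC: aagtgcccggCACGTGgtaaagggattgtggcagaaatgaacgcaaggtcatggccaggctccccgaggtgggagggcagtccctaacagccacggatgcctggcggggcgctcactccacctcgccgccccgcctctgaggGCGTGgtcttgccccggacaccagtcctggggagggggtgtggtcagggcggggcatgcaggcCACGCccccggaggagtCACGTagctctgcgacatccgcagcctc
ENO2: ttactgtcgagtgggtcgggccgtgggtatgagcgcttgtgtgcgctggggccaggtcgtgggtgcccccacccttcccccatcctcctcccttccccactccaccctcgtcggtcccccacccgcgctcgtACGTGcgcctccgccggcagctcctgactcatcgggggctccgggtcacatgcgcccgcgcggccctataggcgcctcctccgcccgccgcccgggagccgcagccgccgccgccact
ALDOC holds 5 cores, of which a CACGTG accounts for 2, since it reads ACGTG on both strands. ENO1 holds 2, P4HA1 and ENO2 hold 1 each, and the windows of SLC2A1 and LDHB hold 0 before the start, although both have a GCGTG just after it. The bases shown thus hold no core for SLC2A1, the member with the highest Ovol2 ratio to EV, or for LDHB, among the lower ones. Those of ALDOC (higher) and P4HA1 (lower) both hold cores. Any part of the cores in these levels was not tested.

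RefSeq windows of 300 bases, 250 before to 50 after the start, matched 29 members with 55 windows in all, since 10 members have several starts. BNIP3L, NDRG1 and VEGFA were not matched. Either core was found in a window of 27 of the 29 members, EGLN3 and PGAM1 being the exceptions. A member with several windows has more places for a match, so this count per gene is read no further. Counted per window, either core occurred in 67.3% of member windows and 48.4% of all windows. For windows of genes that reached 1 FPKM in any library it was 60.7%. By window, ACGTG occurred in 41.8% of member windows, against 21.4% of all 35116 windows and 25.7% of the 13047 windows of genes that reached 1 FPKM in any library. GCGTG occurred in 40.0% of member windows, against 36.5% of all and 48.4% of those of expressed genes. The palindrome CACGTG, which overlaps ACGTG, stood in 14.5% of member windows, 7.26% of all and 9.32% of expressed ones. CAGGTG, searched on both strands and known as the E box that Zeb1 and Snail bind, stood in 10.9%, 20.6% and 18.7%. Median GC content was 68.7% in member windows, 64.7% in those of expressed genes and 58.7% in all. Windows of the same gene can overlap, and a match is no evidence of binding.

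Glucose enters through SLC2A1 (GLUT1) and lactate leaves through SLC16A3 (MCT4). SLC2A1 was at 24.7 FPKM in Zeb1, 11.7 in Snail and 163 in Ovol2, against 32.9 in EV. It was highest with Ovol2 and lowest with Snail, a spread of 13.9 times that was the widest of the members on the log2 (FPKM + 1) scale. The log2 ratios to EV were -0.40 with Zeb1, -1.42 with Snail and 2.27 with Ovol2. By rank of level among all genes, SLC2A1 stood at place 1562 in Zeb1, 4211 in Snail and 287 in Ovol2, against 1330 in EV. The antisense gene SLC2A1-AS1 was at 0.159, 0.0896 and 1.11 FPKM in Zeb1, Snail and Ovol2 and at 0.373 in EV. The library kit is not one that marks strand, so reads from this pair cannot be told apart where they overlap.

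SLC16A3 ran the other way. It was at 62.9 FPKM in Zeb1, 96.1 in Snail and 25.8 in Ovol2, against 72.3 in EV, so Snail was highest and Ovol2 lowest. Its log2 ratios were -0.20, 0.41 and -1.45. The plain ratio of SLC2A1 to SLC16A3 within a library, which a scale factor per library cannot move, was 0.393 in Zeb1, 0.122 in Snail and 6.32 in Ovol2, against 0.455 in EV. Glucose importer transcripts outnumbered those of the lactate exporter per length only in the Ovol2 library of these 4.

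The 9 enzymes of the upper steps turn glucose into triose phosphates. In Zeb1, 8 of them were below EV and 1 above, with 0 past 2-fold and a median log2 ratio of -0.45. Hexokinase HK1, which traps glucose in the cell, was at 30.5 FPKM in Zeb1, 55.8 in Snail and 39.1 in Ovol2, against 54.9 in EV. The platelet-type phosphofructokinase PFKP, of the committed step, was at 35.9 FPKM in Zeb1, 72.8 in Snail and 41.0 in Ovol2, against 67.9 in EV. For both genes the Snail and EV libraries were close, and Zeb1 was lowest (log2 ratios -0.83 and -0.90). The isomerase GPI had a Zeb1 ratio of -0.78, and HK2, PFKL, PFKM, ALDOA and TPI1 lay between -0.58 and -0.25. In Snail the same 9 genes lay between -0.21 and 0.31, with a median of 0.06.

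In Ovol2 the upper enzymes diverged. The muscle-type PFKM was at 15.7 FPKM in Zeb1, 28.5 in Snail and 9.09 in Ovol2, against 24.0 in EV (Ovol2 log2 ratio -1.31). Ovol2 was lowest for PFKM and Zeb1 came next. The aldolases split sugar bisphosphate into trioses, and the minor form ALDOC was at 1.62 FPKM in Zeb1, 1.65 in Snail and 3.93 in Ovol2, against 1.13 in EV (Ovol2 log2 ratio 1.21). ALDOC was highest with Ovol2, at about 189 fragments there against about 65 in EV. The main form ALDOA was at 131 FPKM in Ovol2 and 126 in EV (0.06), and triose phosphate isomerase TPI1 at 186 FPKM in Ovol2 and 147 in EV (0.34). Neither passed 2-fold. ALDOC remained a small share of aldolase transcripts, 1.58% in Zeb1, 1.34% in Snail, 2.92% in Ovol2 and 0.892% in EV.

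**Figure D2:**
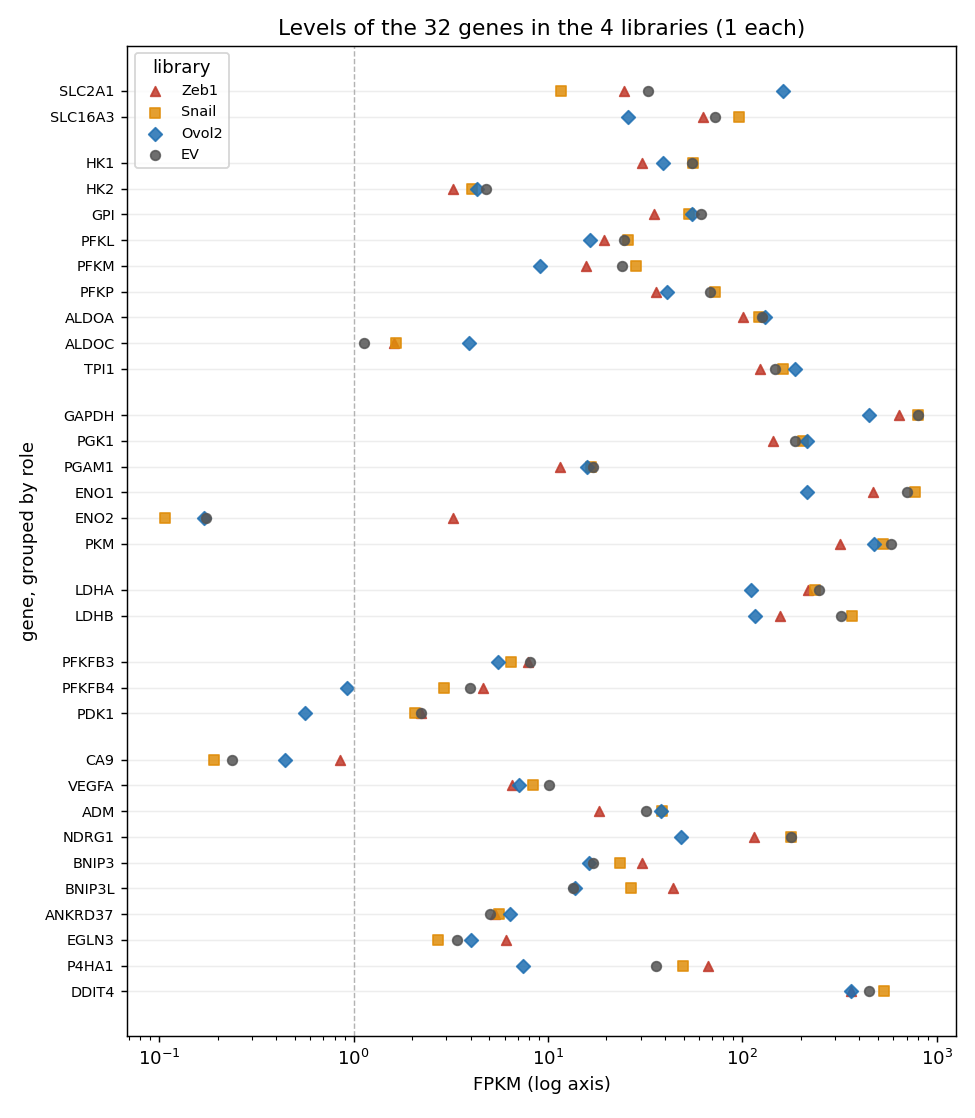
FPKM on a log axis (x) of the 32 members (y, grouped by role) in the Zeb1, Snail, Ovol2 and EV libraries, 1 point a library; the dashed line is 1 FPKM. Markers of most enzymes lie close together, whereas SLC2A1 (11.7 to 163), P4HA1 (7.42 to 66.9) and ENO2 (0.107 to 3.24) are spread widely.

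The lower enzymes turn triose phosphates into pyruvate. In Zeb1, 5 of the 6 were below EV and 1, ENO2, above. GAPDH was at 644 FPKM in Zeb1, 801 in Snail and 449 in Ovol2, against 798 in EV (log2 ratios -0.31, 0.01 and -0.83). Pyruvate kinase PKM was at 317 FPKM in Zeb1, 528 in Snail and 477 in Ovol2, against 579 in EV (-0.87, -0.13 and -0.28). Neither passed 2-fold in any library. GAPDH is a common loading control, and its plain ratio to TPI1 was 5.20 in Zeb1, 4.92 in Snail and 2.41 in Ovol2, against 5.42 in EV.

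The enolases differed most. ENO1, the common form, was at 471 FPKM in Zeb1, 770 in Snail and 216 in Ovol2, against 708 in EV, with log2 ratios of -0.59, 0.12 and -1.71. Ovol2 was lowest, at rank 216 among all genes against 57 in EV. Within libraries ENO1 stood at 3.27 times PGK1 in Zeb1 and 3.74 times in Snail, but at 0.999 times in Ovol2, against 3.80 times in EV. PGK1, which makes the first ATP of the path, was itself at 144, 206 and 217 FPKM in Zeb1, Snail and Ovol2 and at 186 in EV. ENO2, the enolase typical of neurons, was at 3.24 FPKM in Zeb1, 0.107 in Snail and 0.169 in Ovol2, against 0.174 in EV. It was high only in Zeb1 among the 4 libraries, at about 314 fragments against about 9 to 14 in the others, with a log2 ratio of 1.85 and a plain ratio to EV of 18.6. Even so ENO2 was 0.683% of enolase transcripts in Zeb1. PGAM1 lay lowest of the other enzymes of the lower steps, at 11.6, 16.6 and 15.9 FPKM in Zeb1, Snail and Ovol2 and at 17.0 in EV. GAPDH, PGK1, PGAM1, ENO1, LDHA, LDHB, ALDOA, TPI1 and PKM have processed copies in the genome, and how the authors shared reads among such copies is not stated, so their levels are uncertain.

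Over all 17 enzymes from hexokinase to lactate dehydrogenase, 15 were below EV in Zeb1, where 55.9% of all genes were below, and the same number lay below the median of all genes. The exceptions were ENO2 and ALDOC. In Snail 6 of 16 kept enzymes were below EV (all genes 32.4%) and in Ovol2 12 of 16 (all genes 71.9%). Summed, the 17 enzymes made up 1.03% of FPKM in Zeb1, 1.19% in Snail and 0.633% in Ovol2, against 1.19% in EV, with RMRP and RPPH1 left out of the total. The median of the 17 levels was 35.9 FPKM in Zeb1, 72.8 in Snail and 55.2 in Ovol2, against 67.9 in EV. SLC2A1 stood at 0.689 times that median in Zeb1, 0.160 times in Snail and 2.95 times in Ovol2, against 0.484 times in EV.

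Lactate dehydrogenase is a tetramer of LDHA and LDHB subunits, and LDHA-rich forms are the ones associated with lactate production. LDHA was at 217 FPKM in Zeb1, 237 in Snail and 111 in Ovol2, against 249 in EV (log2 ratios -0.20, -0.07 and -1.16). LDHB was at 156 FPKM in Zeb1, 366 in Snail and 116 in Ovol2, against 321 in EV (-1.04, 0.19 and -1.46). Both were lowest in Ovol2, and LDHB was also low in Zeb1. LDHA made up 58.3% of the pair in Zeb1, 39.3% in Snail and 48.9% in Ovol2, against 43.7% in EV, so LDHA exceeded LDHB per length in the Zeb1 library alone. The call of LDHB in Zeb1 was at the edge of the rule, and its ratio was -0.92, -0.96 and -0.71 with centring, upper quartile scaling and length correction.

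The bifunctional kinases PFKFB3 and PFKFB4 make the sugar phosphate that activates phosphofructokinase, and PDK1 closes the route of pyruvate into mitochondria by phosphorylating pyruvate dehydrogenase. PFKFB4 was at 4.62 FPKM in Zeb1, 2.93 in Snail and 0.920 in Ovol2, against 3.96 in EV. PDK1 was at 2.22 FPKM in Zeb1, 2.08 in Snail and 0.565 in Ovol2, against 2.22 in EV. Both were lowest in Ovol2, with log2 ratios of -1.37 and -1.04. PFKFB3 was at 7.86, 6.45 and 5.55 FPKM in Zeb1, Snail and Ovol2 and at 8.08 in EV, and did not pass 2-fold. PFKFB4 was 14.2% of the PFKFB3 and PFKFB4 sum in Ovol2, against 37.0% in Zeb1, 31.2% in Snail and 32.9% in EV. This was the widest range of any isozyme family examined, 22.8 percentage points, ahead of lactate dehydrogenase with 19.0 and PFKP among phosphofructokinases with 11.0. Hexokinase stayed at 90.0% to 93.2% HK1 in all 4 libraries.

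**Figure D3:**
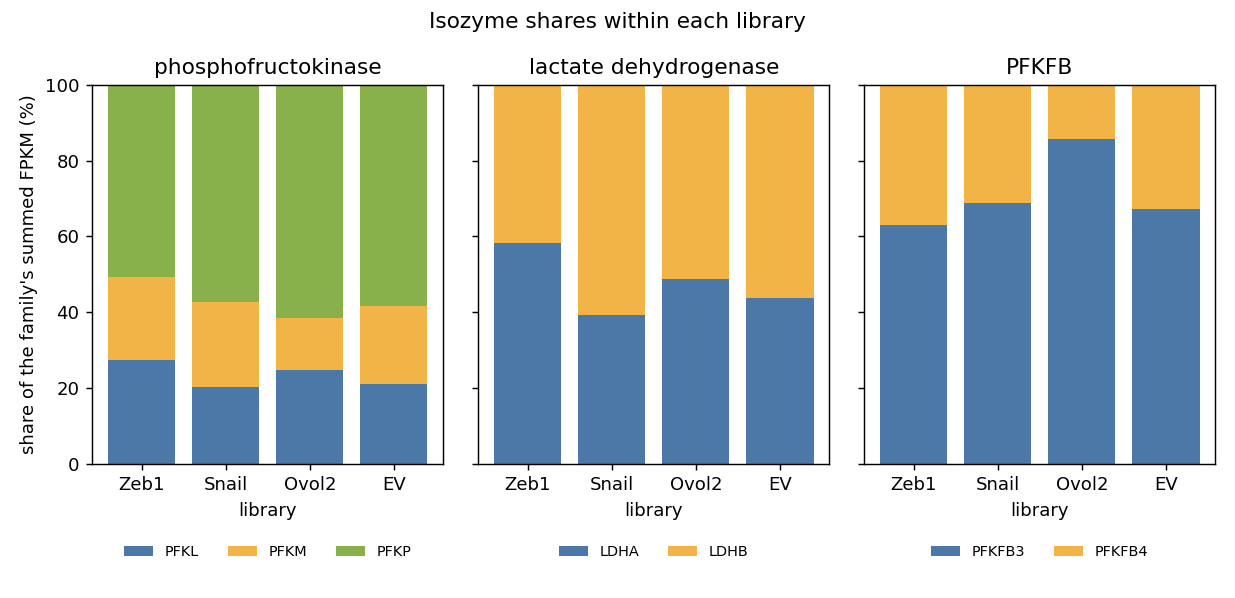
Share of each isozyme in the summed FPKM of its family (y axis, percent) in the Zeb1, Snail, Ovol2 and EV libraries (x axis, 1 each), for phosphofructokinase, lactate dehydrogenase and the PFKFB kinases. LDHA is above LDHB in Zeb1 (58.3%), and PFKFB4 is smallest in Ovol2 (14.2%).

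The hypoxia response genes outside glycolysis did not move together. In Zeb1, 5 of the 9 kept were above EV and 4 below, in Snail 6 and 3, and in Ovol2 4 and 5. Over all genes 44.1% were above EV in Zeb1, 67.6% in Snail and 28.1% in Ovol2. BNIP3L and BNIP3 are outer membrane proteins that mark mitochondria for removal. BNIP3L was at 43.8 FPKM in Zeb1, 26.7 in Snail and 13.7 in Ovol2, against 13.5 in EV. It was highest in Zeb1, next in Snail, and level in Ovol2 and EV, with log2 ratios of 1.63, 0.94 and 0.03. BNIP3 was at 30.6 FPKM in Zeb1, 23.4 in Snail and 16.3 in Ovol2, against 17.1 in EV. Zeb1 was again highest and Snail next, but no BNIP3 ratio passed 2-fold (0.80, 0.43 and -0.07).

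P4HA1, the catalytic subunit of the collagen prolyl hydroxylase, was at 66.9 FPKM in Zeb1, 49.6 in Snail and 7.42 in Ovol2, against 35.8 in EV. It was highest in Zeb1 and far lowest in Ovol2, at log2 ratios of 0.88, 0.46 and -2.13. With centring and length correction its Zeb1 ratio was 1.01 and 1.02, just past the rule. NDRG1, a stress-responsive gene linked to differentiation, was at 114 FPKM in Zeb1, 177 in Snail and 48.2 in Ovol2, against 179 in EV. Ovol2 was lowest here too (-1.87), while Zeb1 stood at -0.64 and Snail at -0.01.

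The other members of this group did not pass 2-fold in any library against EV. EGLN3, the prolyl hydroxylase that is itself a HIF target, was at 6.11 FPKM in Zeb1, 2.72 in Snail and 4.02 in Ovol2, against 3.39 in EV. The vascular growth factor VEGFA was at 6.54 FPKM in Zeb1, 8.43 in Snail and 7.09 in Ovol2, against 10.2 in EV, which was highest. The vasodilator peptide gene ADM was at 18.4 FPKM in Zeb1, 38.6 in Snail and 38.2 in Ovol2, against 31.8 in EV, with Zeb1 lowest (-0.76). DDIT4, an inhibitor of the mTOR kinase complex, was high in all 4 libraries, at 363 FPKM in Zeb1, 538 in Snail and 363 in Ovol2, against 451 in EV. ANKRD37 lay between 5.05 and 6.42 FPKM throughout. CA9, a cell-surface carbonic anhydrase and a standard hypoxia marker, was at 0.847 FPKM in Zeb1, 0.190 in Snail and 0.443 in Ovol2, against 0.236 in EV. That is about 47 fragments in Zeb1 and 10 to 17 in the others, too few for its differences to be read firmly.

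Lists of neighbouring pathways place these values. Of 12 HIF pathway components, 10 were kept against EV, and 1 was higher in Zeb1 and 1 in Snail, in both the coactivator-binding CITED2 (log2 ratios 1.60 and 1.06). Over all genes 4.52% were higher in Zeb1 and 1.00% in Snail. The Snail call was lost with centring, upper quartile scaling and length correction. HIF1A, the oxygen-regulated subunit, was at 177 FPKM in Zeb1, 175 in Snail and 23.1 in Ovol2, against 104 in EV. EPAS1, which encodes its relative HIF-2alpha, was at 29.7 FPKM in Zeb1, 38.9 in Snail and 10.7 in Ovol2, against 41.6 in EV. In Ovol2 all 10 kept components were below EV, as were 71.9% of all genes, and 5 were past 2-fold, where 25.1% of all genes were lower, HIF1A (-2.13), EPAS1 (-1.86), the prolyl hydroxylase EGLN1 (-1.82), ARNT (-1.46) and the coactivator EP300 (-1.08). EP300 was named after its value was seen. With upper quartile scaling 3 of the 10 were past 2-fold (9.58% of all genes lower) and with length correction 2 (7.56%), HIF1A among them each time (-1.48 and -1.55). The list's median log2 ratio was 0.44 in Zeb1, 0.37 in Snail and -0.99 in Ovol2, beside -0.09, 0.12 and -0.51 over all genes. The list's Ovol2 median was -0.54 with upper quartile scaling and -0.015 with length correction, beside 0.007 and 0 over all genes. These are transcript levels, and HIF1A is known to be controlled mostly as a protein.

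Of 29 further hypoxia responsive genes, 7 of 27 kept were higher and 1 lower in Zeb1, led by the growth factor binding protein IGFBP3 (5.26), the secreted STC2 (3.32), the glycogen regulator PPP1R3C (2.91) and TMEM45A (2.39). Over all genes 4.52% were higher and 8.49% lower in Zeb1. PPP1R3C (7.57 FPKM in Zeb1, 0.140 in EV) and STC1 (1.81 in Zeb1, 0.0974 in EV), both among the 7, were kept only through the Zeb1 library, where they were high, so the count is read no further. The lower one was the carbonic anhydrase CA12 (-2.04). STC1 and CA12 were named after their values were seen. In Snail 2 of 24 were higher, IGFBP3 (2.29) and the collagen crosslinker LOX (1.61), and 0 lower. Of all genes 1.00% were higher in Snail and 2.51% passed 2-fold in either direction. In Ovol2 3 of 24 were higher and 10 lower, beside 6.82% and 25.1% of all genes. TMEM45A (4.45), the lipid droplet gene HILPDA (1.69) and FAM162A (1.64) were the higher ones, and LOX (-3.77) and the lysyl hydroxylase PLOD2 (-2.97) led the lower ones. HILPDA and FAM162A were named after their values were seen. With upper quartile scaling, and likewise with length correction, 4 of this list were higher and 4 lower in Ovol2, beside 16.0% and 9.58% of all genes with the first and 9.81% and 7.56% with the second. The list's median log2 ratio was 0.56 in Zeb1, 0.27 in Snail and -0.71 in Ovol2, and 0.024 in Ovol2 with length correction. With the same filter, the medians over all genes were -0.09, 0.12 and -0.51, and 0 in Ovol2 with length correction. The list's Zeb1 median covers 27 genes and the other medians at most 24, so they are not compared. STC1, PPP1R3C, RORA (1.53 FPKM in Zeb1, 0.472 in EV) and MIR210HG (2.49 in Zeb1, 0.980 in EV) entered the Zeb1 median only through the Zeb1 library, where they were high. MIR210HG, at 1.20 FPKM in Snail and 1.25 in Ovol2, likewise entered the other medians only through the factor library. Without the filter, over the same 29 genes each time, the list's medians were 0.50, 0.23 and -0.51.

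The pentose phosphate pathway takes glucose phosphate away from glycolysis to make NADPH and ribose. In Ovol2 4 of its 7 genes were higher than in EV and 0 lower, beside 6.82% and 25.1% of all genes. The oxidative enzyme PGD was at 27.9 FPKM in Zeb1, 36.3 in Snail and 200 in Ovol2, against 52.2 in EV, and transketolase TKT at 116, 219 and 551 in Zeb1, Snail and Ovol2 and at 265 in EV. Both were highest in Ovol2 and lowest in Zeb1. The log2 ratios to EV in Ovol2 were 1.92 for PGD, 1.36 for the transaldolase TALDO1 and 1.06 for TKT. The count was also 4 higher and 0 lower under centring, upper quartile scaling (16.0% of all genes higher) and length correction (9.81%). In Zeb1 2 of 7, TKT (-1.18) and TALDO1 (-1.03), were lower and all 7 were below EV, with 1 of 7 lower under each of those scalings, and in Snail 0 of 7 passed 2-fold. Of all genes 8.49% were lower and 55.9% below EV in Zeb1, and 2.51% passed 2-fold in Snail. With those scalings, in the same order, 6.45%, 7.32% and 5.78% of all genes were lower in Zeb1. The median of the 7 was -0.72 in Zeb1, -0.13 in Snail and 1.06 in Ovol2, the last against -0.51 over all genes.

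**Figure D4:**
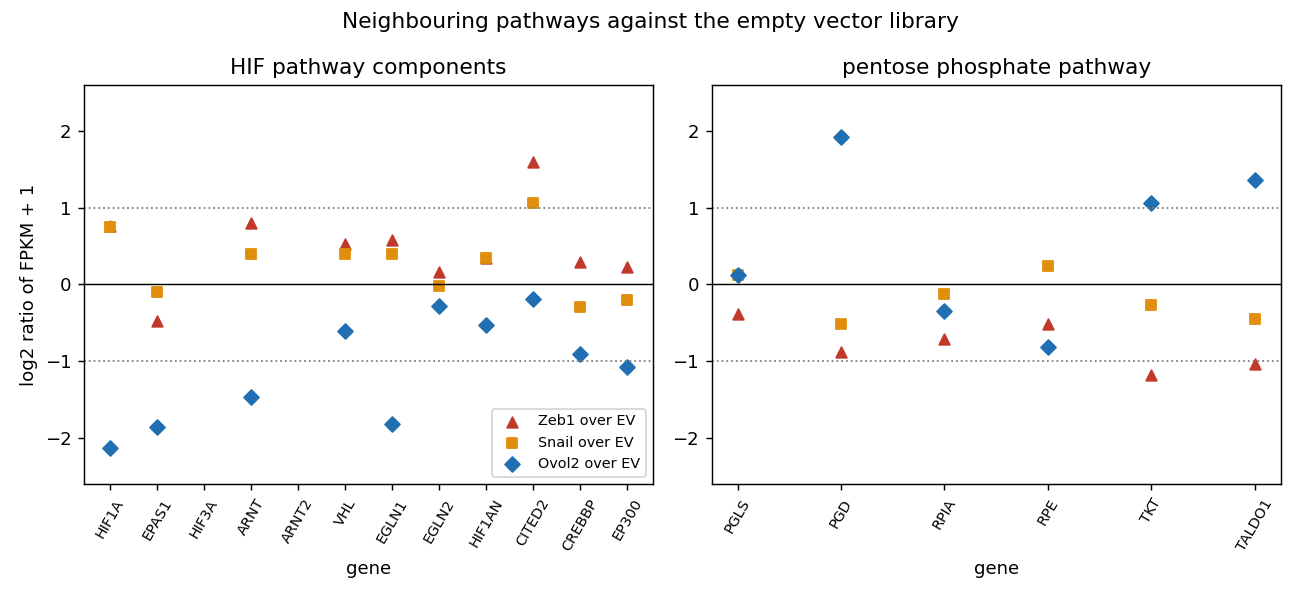
Log2 ratio of FPKM + 1 over EV (y axis) for HIF pathway components and 6 of the pentose phosphate genes (x axis) in the Zeb1, Snail and Ovol2 libraries, 1 each; dotted lines mark 2-fold. All Ovol2 points of the HIF panel are below 0 (HIF1A at -2.13), while PGD, TALDO1 and TKT lie above 1 in Ovol2.

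Setting the factor libraries against each other leaves out EV. Zeb1 over Snail had 2 of 31 members higher, ENO2 (1.94) and SLC2A1 (1.02), and 3 lower, LDHB (-1.23), ADM (-1.03) and PFKP (right at the threshold), beside 2.34% and 6.43% of all genes. None of the 3 lower calls remained with centring, upper quartile scaling or length correction. In this pair 16 of the 17 enzymes were below 0, where 66.9% of all genes were. Ovol2 over Zeb1 had 2 of 31 higher, SLC2A1 (2.67) and ADM (1.02), and 8 lower, led by P4HA1 (-3.01), ENO2 (-1.86) and BNIP3L (-1.60), beside 14.4% and 28.8%. ENO2 was kept in this pair and in Zeb1 over Snail only through the Zeb1 library, where it was high. PFKFB4 and PDK1, also among the 8 lower, were kept in Ovol2 over Zeb1 only through Zeb1. Of the 17 enzymes 10 were above 0 in Ovol2 over Zeb1, where 36.1% of all genes were. Ovol2 over Snail had 1 of 30 higher, SLC2A1 (3.69), and 8 lower, led by P4HA1 (-2.59), SLC16A3 (-1.86) and NDRG1 (-1.86), beside 8.83% and 32.4%. PFKFB4, also lower in this pair, was kept only through Snail.

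Part of the Ovol2 calls depended on the scaling. Of the 11 members past 2-fold against EV, 5 stayed so under centring, upper quartile scaling and length correction alike, namely SLC2A1, ALDOC, ENO1, NDRG1 and P4HA1. Upper quartile scaling gave 2 higher and 3 lower in place of 2 and 9, beside 16.0% and 9.58% of all genes. Length correction gave 3 higher and 4 lower, with PGK1 as the added higher member (1.06), beside 9.81% and 7.56% of all genes. SLC16A3, PFKM, PFKFB4, LDHA and PDK1 had length-corrected ratios of -0.63, -0.70, -0.76, -0.96 and 0.07. LDHB had -1.62 with length correction but -0.80 with upper quartile scaling. In Zeb1, 2 of 3 calls (ENO2 and BNIP3L) stayed under the 3 scalings, and in Snail the call of SLC2A1 did. The filter on low values came before each scaling, so ENO2 was again kept only through Zeb1.

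**Figure D5:**
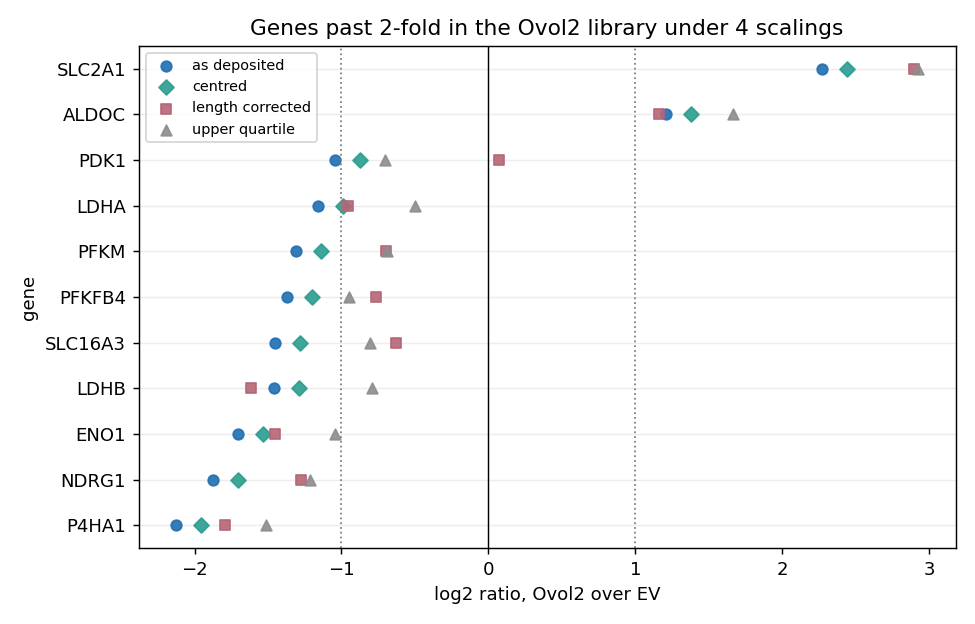
Log2 ratio Ovol2 over EV (x axis) of the 11 members past 2-fold (y axis) with values as deposited, centred, length corrected and upper quartile scaled, 1 library each; dotted lines mark 2-fold. SLC2A1 and ALDOC stay above 1 and P4HA1, NDRG1 and ENO1 below -1 throughout, whereas PDK1 moves to 0.07 with length correction.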

How the data were processed

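RNA sequencing libraries of 4 cultures (1 per group) were used as deposited. The authors deposited 3 tables of 25360 rows, each with EV and 1 factor. The unit stands in no header. Deposited values were read as FPKM, since TopHat, Cufflinks, Cuffdiff and the hg19 build appear in the submitters' processing notes and the values step with transcript length as whole fragments do. Versions, annotation and scaling between libraries are not given in the sources used here. Per the file headers each table also holds the authors' signed fold, a score of 1 library against 1, used only as an alternative.

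EV values were identical in all 3 tables. Repeats of a symbol (43 rows) were added up (pandas 2.3.3, Python 3.11.15). Log2 ratios used FPKM + 1 and genes reaching 1 FPKM in a library of the pair, called at 2-fold. Promoters on chromosome 8 (NDRG1) were not shown. Depth came from the commonest step among low values times the longest GENCODE 29 transcript, and fragments per gene are estimates from it. Centring used genes at 5 FPKM or more in both libraries, and length correction a running median over 501 genes along the longest transcript, known for all 32 members. The code for ratios and scalings was checked on simulated counts, which says nothing of the calls made here. The list gene TIGAR was matched by an older symbol. No columns of other samples were present. The members and lists were chosen with earlier results of these data known. All members are named by rule, and of each neighbouring list up to 4 genes past 2-fold per comparison, with HIF1A and EPAS1. A few list genes are counted but not reported here.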

Additional observations from a re-analysis of the deposited data

Results flagged for a closer look

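SLC2A1 was higher by 2-fold or more with Ovol2 and lower by 2-fold or more with Snail, each against the same EV library. It was at 163 FPKM in Ovol2 and 11.7 in Snail, against 32.9 in EV, which are log2 ratios of 2.27 and -1.42. With the values as deposited it was the only one of the 32 members called in opposite directions by 2 factors. With centring and with length correction P4HA1 was so called too, higher with Zeb1 and lower with Ovol2. With 1 library per group neither difference was tested.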

How the results depend on the processing

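Centring subtracted a median of -0.12 with Zeb1, 0.14 with Snail and -0.17 with Ovol2, and upper quartile scaling added 0.08, -0.16 and 0.66. In Zeb1 against EV, a filter of 5 FPKM left 1 member higher, centring, upper quartile scaling and length correction each left 0 lower, and the centred median was -0.19. In Snail against EV the member median became -0.10, -0.11 and -0.070 with centring, upper quartile scaling and length correction. In Ovol2 against EV, a filter of 5 FPKM left 1 higher and the centred median was -0.22. Upper quartile scaling gave 3 lower and a median of 0.26, and length correction 4 lower and a median of 0.11. The Ovol2 medians over all genes were -0.34, 0.007 and 0 with centring, upper quartile scaling and length correction. A call at 1.5-fold gave 5 higher and 8 lower with Zeb1 and 1 higher with Snail, beside 12.3%, 21.3% and 4.59% of all genes.

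In Zeb1 against Snail, 1 was higher with a filter of 5 FPKM, 0 were lower with centring, upper quartile scaling or length correction, and 4 were higher and 9 lower at 1.5-fold. In Ovol2 against Zeb1, 5 were lower with a filter of 5 FPKM, 1 higher with centring, 7 higher and 4 lower with upper quartile scaling, 5 and 5 with length correction, and 7 higher at 1.5-fold. In Ovol2 against Snail, 2 were higher with a pseudocount of 0.1, with centring and at 1.5-fold, where 13 were lower, and upper quartile scaling gave 4 and 3 and length correction 4 and 4. PDK1 changed sign with length correction, to 0.070 in Ovol2 against EV and 0.40 in Ovol2 against Zeb1. The correction took the longest PDK1 transcript, 14193 bases, as its length and subtracted the running median there. The longest 10% of transcripts had a median of -1.07 in Ovol2 against EV and -1.27 in Ovol2 against Zeb1. Whether PDK1 was expressed as that transcript was not tested. Over the 6 comparisons and all alternatives, single members gained a call 62 times and lost one 44 times. Isozyme shares moved by less than 2 percentage points with 0.1 FPKM added, and member counts stayed within 1.5 times with the authors' deposited signed folds.

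The shares over all genes moved too. Higher and lower were 23.4% and 16.5% in Ovol2 against Zeb1 with upper quartile scaling, 15.5% and 13.8% with length correction and 21.9% higher at 1.5-fold. In Ovol2 against Snail they were 20.4% and 11.7%, and 13.1% and 10.4%, with those scalings, and in Zeb1 against Snail 3.55% and 3.08% lower. At 1.5-fold 6.38% were higher and 20.7% lower in Zeb1 against Snail, and 14.1% and 51.5% in Ovol2 against Snail. With a filter of 5 FPKM 5.11% were higher in Zeb1 and 8.18% in Ovol2, each against EV. That filter gave 2.34% higher in Zeb1 against Snail and 31.5% lower in Ovol2 against Zeb1. With centring 2.97% were lower in Zeb1 against Snail. Centring gave 13.5% higher in Ovol2 against Zeb1 and 11.9% higher in Ovol2 against Snail. A pseudocount of 0.1 gave 10.6% higher in Ovol2 against Snail. Zeb1 against EV had 6.45%, 7.32% and 5.78% lower with centring, upper quartile scaling and length correction.

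No paired analysis was possible because each group holds 1 library. Leaving out a replicate was likewise not possible. At these depths genes under 1 FPKM, such as CA9, rest on few fragments.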

Other observations

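Of 15 genes that handle pyruvate after glycolysis, 1 was higher and 0 lower in Zeb1, 0 and 0 in Snail, and 0 and 3 in Ovol2, where 6.82% and 25.1% of all genes were. The median log2 ratio was -0.21 in Zeb1, 0.13 in Snail and -0.31 in Ovol2, against -0.51 over all genes in Ovol2. The Ovol2 count turned with the scaling, to 2 higher and 1 lower with centring and with upper quartile scaling and to 1 and 1 with length correction. All genes gave 8.91% and 18.3% with centring, 16.0% and 9.58% with upper quartile scaling and 9.81% and 7.56% with length correction. The mitochondrial pyruvate carrier subunits MPC1 and MPC2 were at 14.0 and 22.4 FPKM in Ovol2, against 7.18 and 10.8 in EV, with log2 ratios of 0.87 and 0.99, just short of the 2-fold rule, and they were named after their values were seen. The lactate and pyruvate transporter SLC16A1 was at 12.6 FPKM in Ovol2, against 47.0 in EV (-1.81), and DLD (-1.12) and PDK3 (-1.12) were the other lower genes. PDK3 was at 0.140 FPKM in Ovol2 and 1.48 in EV, so it was kept only through EV. In Zeb1 the pyruvate dehydrogenase kinase PDK4 was at 13.4 FPKM, against 3.08 in EV (1.82).

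Of 18 other glycolysis and glucose phosphate genes, 8 were kept with Zeb1, 9 with Snail and 8 with Ovol2. PGM1 and PGM2 gave the only calls against EV. Over all genes 8.49% were lower in Zeb1 and 25.1% in Ovol2, and 2.51% passed 2-fold in Snail. PGM2 was at 8.11 FPKM in Zeb1, against 23.7 in EV (-1.44), and PGM1 at 6.29 FPKM in Ovol2, against 23.5 in EV (-1.75). The tissue-restricted isozymes HK3, PGK2, LDHC and FBP1 lay at 0 to 0.080 FPKM in all 4 libraries.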
